A study of Arabidopsis thaliana with 4 samples.

Results

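Loci of the chloroplast and mitochondrial genomes were examined in Arabidopsis thaliana seedlings that overexpress the ethylene response factor ERF4. Members were taken by identifier alone: every gene probe whose locus name began with ATCG (chloroplast) or ATMG (mitochondrion). The group itself was chosen with earlier results of these data known. Of 25665 genes on the arrays, 5 met the rule, each read by 1 probe, namely 1 chloroplast locus (ATCG01000) and 4 mitochondrial loci (ATMG00285, ATMG00300, ATMG00516 and ATMG00580). The sources used here pair these identifiers with no gene name, so they are given by locus and no role is assigned to them. Because the rule finds so few loci, nothing below speaks for either organelle genome as a whole.

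The seedlings carried 35S:AtERF4-HA, an ERF4 fused to an HA tag, or 35S:NLS-GFP-HA, a tagged nuclear green fluorescent protein that served as control. The 35S promoter, active in most plant tissues, drove each transgene in the Columbia-0 ecotype. Whole seedlings, 14 days old and otherwise untreated, were grown on agar with 0.5% sucrose at 23 degrees Celsius in days of 16 h light, both genotypes of a replicate sharing a plate. RNA of 4 biological replicates was hybridised on 4 2-colour arrays, each holding both genotypes, with AtERF4-HA in Cy3 (green) on arrays 1 and 2 and in Cy5 (red) on arrays 3 and 4. The sources used here do not say how many seedlings or independent lines entered a replicate.

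Chloroplasts and mitochondria keep small genomes of their own, which encode core subunits of photosynthesis and respiration and parts of the machinery that expresses them. The other subunits, and most regulators of organelle transcription and RNA decay, are encoded in the nucleus and imported. In plants the chloroplast genome is read by a bacterial-type polymerase, steered by nuclear sigma factors, and by phage-type polymerases, which also read the mitochondrial genome. Most organelle transcripts carry no poly(A) tail, and in organelles a tail marks an RNA for decay, whereas labelling kits of the type named in the labels start from such tails. Part of the mitochondrial genome is also present as a near-identical insertion in a nuclear chromosome, so a probe may read copies from both. What tails or nuclear copies add to the signals below was not tested.

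All ratios are AtERF4-HA over control, by the dyes in the labels. The authors' deposited value table runs the other way by the same dyes, and correlated with these log2 ratios at -0.66, -0.77, -0.50 and -0.78 on arrays 1 to 4 over all probes, although the sample titles also put AtERF4-HA over control. The dye labels were followed here, and an exchange would turn every sign. ERF4 (AT3G15210), the overexpressed gene, had log2 ratios of 0.98, 0.87, 0.82 and 1.04 on arrays 1 to 4. By the dye labels it was higher in the AtERF4-HA channel on all 4. An exchange would make it lower in its own overexpressor. Over gene probes the median red signal (166 to 222 units) exceeded the median green signal (122 to 140 units) on every array, with local backgrounds of 58 to 60 units. All 6 shoot markers and all 11 root markers were bright enough to be tested, while 0 of 2 pollen and 0 of 3 seed markers were. In whole seedlings, fewer cells of a type, fewer organelles per cell and less RNA per organelle cannot be told apart.

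Because red was the brighter dye over all probes, the deposited signals of a locus have to be read by dye before the genotypes are set side by side. In the plot of deposited signals, lines of ATCG01000 and ATMG00580 slope one way on arrays 1 and 2 and the other way on arrays 3 and 4.

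**Figure D1:**
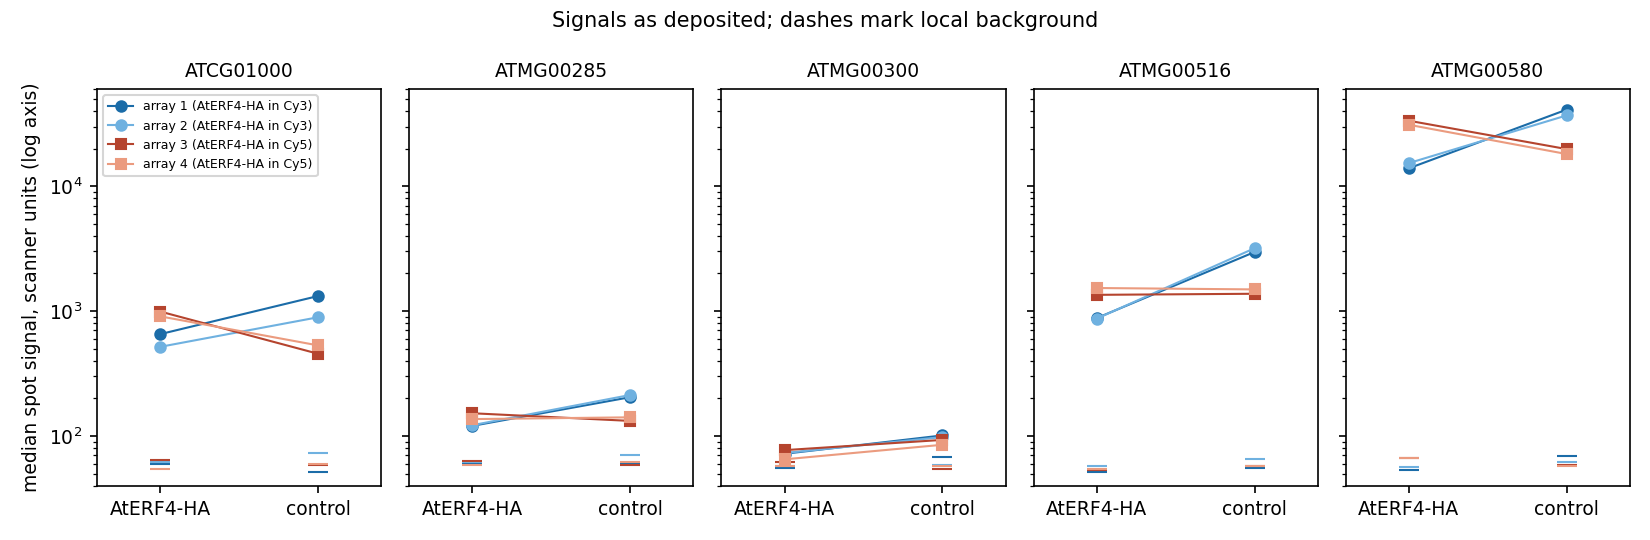
Median spot signal (scanner units, log axis) of the 5 organelle loci in the AtERF4-HA and the control channel of each array, joined by a line per array, with local background as dashes. ATMG00580 lay between 13897.5 and 41013 units and ATMG00300 between 65 and 101, close to its background.

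ATMG00516 fell in AtERF4-HA seedlings, and its ratio lay further from 0 than those of the 3 other loci that were well above background in both genotypes. Its signals were 878, 870, 1349 and 1530 units in the AtERF4-HA channel of arrays 1 to 4, against 2969, 3184, 1376 and 1491 units in the control channel. The control was far brighter where it carried red, and the 2 channels were nearly level where it carried green, so the control was the brighter one once the dyes were balanced. After loess within arrays and quantile normalization of mean intensity between arrays, the log2 signals were 10.52, 10.41, 10.23 and 10.27 in AtERF4-HA. In the control they were 10.80, 11.30, 10.81 and 11.19. The log2 ratios were -0.28, -0.89, -0.58 and -0.92 on arrays 1 to 4, below 0 on all 4.

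The fitted log2 ratio of ATMG00516 was -0.67 ± 0.12 (SE, n = 4 arrays), a 1.59-fold lower level with a 95% interval of -0.99 to -0.34, and it passed the threshold (limma adjusted p = 0.023). A gene was called at a Benjamini-Hochberg adjusted p under 0.05 over the 19497 genes tested, of which 25.6% were called, 13.6% as higher and 12% as lower. The absolute ratio of ATMG00516 exceeded that of 91.6% of genes tested. By dye orientation its mean ratio was -0.59 with AtERF4-HA in Cy3 and -0.75 with AtERF4-HA in Cy5. Without array 1 it came to -0.82 (limma adjusted p = 0.057) and without array 2 to -0.51 (limma adjusted p = 0.10), where it did not pass.

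**Figure D2:**
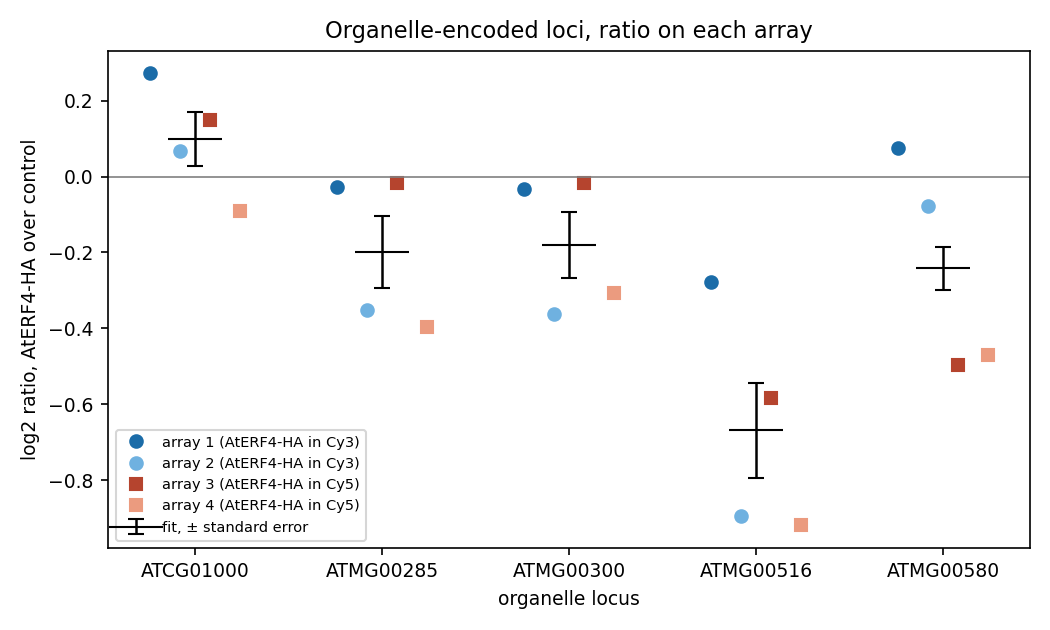
Log2 ratio of AtERF4-HA over control (y axis) for each organelle locus (x axis) on each array, circles with AtERF4-HA in Cy3 and squares with AtERF4-HA in Cy5, with the fitted value and its standard error in black. ATMG00516 lies below 0 on all 4 arrays, and ATMG00580 is near 0 on arrays 1 and 2 and near -0.5 on arrays 3 and 4.

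ATMG00580 also passed as lower, but its ratio went with the dye. It gave 13897.5, 15300, 33437.8 and 31031.7 units in the AtERF4-HA channel of arrays 1 to 4, and 41013, 36871.7, 19823.8 and 18090 units in the control channel. Its log2 ratios were 0.07 and -0.08 on arrays 1 and 2, and -0.50 and -0.47 on arrays 3 and 4. Values below 0 were thus seen on 3 of 4 arrays, and clearly so only where AtERF4-HA carried Cy5.

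The fit gave ATMG00580 a log2 ratio of -0.24 ± 0.06 (SE, n = 4 arrays), 1.18-fold lower (limma adjusted p = 0.040), after taking out a dye effect of the same size, -0.24 (limma adjusted p of the dye effect = 0.41). The normalized log2 signals of the genotypes overlapped, with 14.45 ± 0.11 in AtERF4-HA and 14.69 ± 0.23 in the control (SD, n = 4 each). These spreads of single channels are not that of the ratio within arrays, which was tested. Without the dye term ATMG00580 did not pass (limma adjusted p = 0.17), nor with median centring in place of loess (-0.05, adjusted p = 0.86), nor without any 1 of the arrays (adjusted p = 0.060 to 0.25). No spot of the probe was saturated. Its red signal was, per the files' flags, scaled up from the scanner's low-gain scan on all 4 arrays and its green signal on array 3. This held for the red channel of 788 genes tested (4.04%), whose median dye effect was 0.07, against 0.01 in all other genes tested. The part of scanner gain in the ratio was not tested.

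ATMG00285 lay low on the brightness scale, and its ratio did not pass. Its signals were 120.5, 122, 152 and 136.5 units in AtERF4-HA over backgrounds of 59 to 63.5, and 204.5, 213, 132 and 141 units in the control over backgrounds of 58.5 to 71. The log2 ratios of -0.03, -0.35, -0.02 and -0.40 were all below 0, though 2 of them barely. At -0.20 ± 0.10 (SE, n = 4 arrays, limma adjusted p = 0.18), the 95% interval of -0.45 to 0.05 includes a fall of about the size fitted for ATMG00580 as well as no difference. With an offset of 16 units added to both channels in place of 50, ATMG00285 was at -0.26 (limma adjusted p = 0.18). Without background correction it passed (-0.26, adjusted p = 0.044), while leaving out array 2 or array 4 brought it to -0.12 or -0.10 (adjusted p = 0.58 and 0.48).

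For ATMG00300 the AtERF4-HA signal was not well above background on any array, while the control signal was on all 4. The locus therefore entered the test only through the control channel, and its sign is not independent of that filter. Signals were 72, 73, 77 and 65 units in AtERF4-HA over backgrounds of 55 to 62, against 101, 98, 93 and 85 units in the control over backgrounds of 54.5 to 68. The control was the brighter channel on every array, by 16 to 29 units.

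The log2 ratios of ATMG00300 were -0.03, -0.36, -0.02 and -0.31, with a fitted value of -0.18 ± 0.09 (SE, n = 4 arrays, limma adjusted p = 0.18). The normalized log2 means were 7.54 in AtERF4-HA and 7.72 in the control, and the 95% interval of the ratio, from 0.75-fold to 1.03-fold, includes no difference. That interval holds for an offset of 50 units added to both channels, which draws the ratios of dim spots towards 0, so it does not bound the difference in RNA. With an offset of 16 the ratio was -0.31 (limma adjusted p = 0.18). Leaving out array 2 or array 4 brought the fitted value to -0.10 or -0.11 (adjusted p = 0.61 and 0.47). The ratio differed widely between processings. It reached -2.04 with the scanner software's processed signals (adjusted p = 0.0040) and -1.93 with the authors' deposited value table turned to the labels' direction (adjusted p = 0.0042). Relative to the median of all genes both stood at -2.09, so they are not 2 separate readings. Without background correction ATMG00300 passed at -0.27 (adjusted p = 0.011).

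ATCG01000, the chloroplast locus, did not pass in either direction. It gave 654, 517.5, 991 and 907 units in AtERF4-HA against 1320.5, 892.5, 455 and 531 units in the control on arrays 1 to 4. Its log2 ratios were 0.27, 0.07, 0.15 and -0.09, above 0 on 3 of 4 arrays. The fit gave 0.10 ± 0.07 (SE, n = 4 arrays, limma adjusted p = 0.34), and its 95% interval on the linear scale ran from 0.94-fold to 1.22-fold. Normalized log2 signals overlapped, at 9.83 ± 0.18 in AtERF4-HA and 9.73 ± 0.11 in the control (SD, n = 4 each), spreads of single channels and not of the ratio tested. With the authors' deposited value table ATCG01000 passed as higher, at 0.31 (adjusted p = 0.040). That table is not centred, with the median gene at 0.16 in the same direction, and relative to that median the locus stood at 0.15.

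Of the 5 loci, 2 were called, both mitochondrial and both lower, beside the 12% of all genes tested that were called lower, and the chloroplast locus was not called. The 4 mitochondrial ratios had a median of -0.22, against 0.01 for all genes tested, and each of the 4 lay below 0 in the fit. With 4 loci, 1 of them tested through the control channel only, this median is a description. The loci also shared a pattern over arrays. Ratios were higher on array 1 than on array 2, and on array 3 than on array 4, at 4 of the 5 loci and in 38% of all genes tested. The source of this pattern was not tested.

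**Figure D3:**
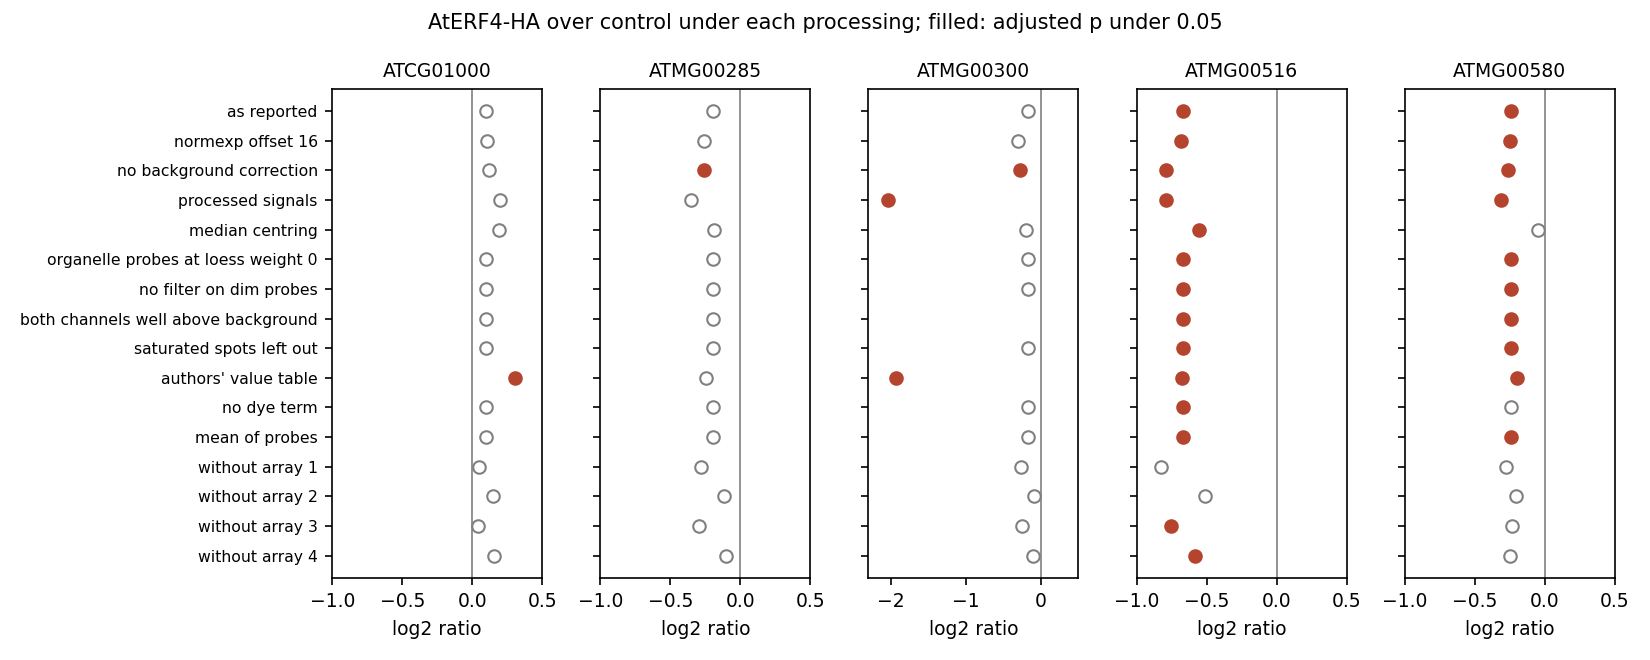
Log2 ratio of AtERF4-HA over control (x axes, wider for ATMG00300) of each organelle locus under the processing reported and under each alternative (rows), filled where the adjusted p was under 0.05. ATMG00516 stays between -0.82 and -0.51 and ATMG00300 reaches -2.04.

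Nuclear genes that work with the organelle genomes were set beside these loci in 9 lists, with 116 of 119 members tested. Of these, 53 rose, 4 fell and 59 did not pass, where 13.6% of all genes tested were called higher and 12% lower. The lists that serve photosynthesis held most of the rises.

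Among nuclear subunits of the photosystems, 22 of 23 rose, 0 fell and 1 did not pass, with a median log2 ratio of 0.57. PSBQ2 (AT4G05180), of the oxygen-evolving complex, rose by 1.03 ± 0.06, and PSAO (AT1G08380), a subunit of photosystem I, by 0.77 ± 0.09 (SE, n = 4 arrays, both higher on 4 of 4 arrays). The list's median went with the dye as well, at 0.32 and 0.29 on arrays 1 and 2 and 0.75 and 1.05 on arrays 3 and 4. Of 10 tested subunits of the chloroplast NDH complex, which cycles electrons around photosystem I, 8 rose and 2 did not pass (median 0.52). NDHO (AT1G74880) rose by 0.76 ± 0.07 and PNSB3 (AT3G16250) by 0.64 ± 0.06. Nuclear subunits of the cytochrome b6f complex, the plastid ATP synthase and Rubisco went both ways, with 5 of 9 higher, 1 lower and 3 not past (median 0.31). RBCS3B (AT5G38410) and RBCS2B (AT5G38420), genes of the small Rubisco subunit, rose by 0.63 ± 0.05 and 0.59 ± 0.07, while RBCS1B (AT5G38430), of the same family, fell, at -0.39 ± 0.07. These genes are almost the same in sequence, so their probes may read each other's RNA, and the fall of RBCS1B did not hold with median centring (-0.16, adjusted p = 0.50). The other rises were of PETC (AT4G03280), the Rieske protein, at 0.45 ± 0.07, and of the ATP synthase subunits ATPD (AT4G09650) at 0.35 ± 0.06 and ATPG (AT4G32260) at 0.30 ± 0.07. Without the dye term neither passed (adjusted p = 0.074 and 0.054), and ATPG was at 0.14 with processed signals (adjusted p = 0.15). The nuclear genes of the plastid ribosome and its elongation factors had 8 of 13 higher and 5 not past (median 0.27), led by PRPL13 (AT1G78630) at 0.41 ± 0.05 and PRPL4 (AT1G07320) at 0.40 ± 0.06.

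A further 4 lists hold regulators of organelle transcription, RNA and signalling. In the order below, 33.3%, 15.4%, 33.3% and 40% of their tested members were called, against 25.6% of all genes tested. With 5 to 13 tested genes in a list, these shares are a description. Of 9 sigma factors and phage-type polymerases, 2 rose, 1 fell and 6 did not pass (median -0.09). SIG5 (AT5G24120), a stress-induced sigma factor, fell, at -0.50 ± 0.06, lower on 4 of 4 arrays, and SIG4 (AT5G13730) and SIG3 (AT3G53920) rose by 0.29 ± 0.06 and 0.27 ± 0.06. Median centring left SIG5 at -0.35, where it missed the threshold (adjusted p = 0.073). Of the phage-type polymerases, RPOTm (AT1G68990), which transcribes the mitochondrial genome, was at -0.18 ± 0.09 and did not pass. RPOTp (AT2G24120) and RPOTmp (AT5G15700) were at -0.36 ± 0.13 and -0.15 ± 0.07 and did not pass either (limma adjusted p = 0.10 and 0.19). RPOTm passed under 1 of 15 alternatives, without array 3 (-0.30, adjusted p = 0.029), and was at -0.07 without array 4 (adjusted p = 0.57). Among 13 tested proteins bound to the plastid polymerase, 2 rose and 11 did not pass (median 0.02), the rises being those of TRXZ (AT3G06730), a thioredoxin, at 0.43 ± 0.08 and of PTAC7 (AT5G24314) at 0.29 ± 0.05. Of 9 genes of organelle RNA decay and processing, 3 rose and 6 did not pass (median 0.05). CSP41A (AT3G63140) and CSP41B (AT1G09340), RNA-binding proteins of the chloroplast, rose by 0.63 ± 0.05 and 0.51 ± 0.06, and RNE (AT2G04270), an endonuclease, by 0.27 ± 0.06. Of 5 genes of plastid-to-nucleus signalling, 2 rose and 3 did not pass (median 0.26): GLK1 (AT2G20570) at 0.58 ± 0.08 and GLK2 (AT5G44190) at 0.34 ± 0.08, transcription factors of chloroplast development. Without the dye term SIG4, RNE and GLK2 did not pass (adjusted p = 0.057, 0.13 and 0.064), and SIG3 did not without array 4 (adjusted p = 0.082).

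The nuclear partners of the mitochondrial genome showed little change. Of 25 respiratory chain subunits, 1 rose, 2 fell and 22 did not pass, with 12% called against 25.6% of all genes tested. Their median was -0.06, and the ratios ran from -0.28 (AT5G13440) to 0.25 (CA1, AT1G19580, a carbonic anhydrase-like subunit of complex I). AT5G13440 and AT5G08690, an ATP2 gene of the beta subunit of the ATP synthase, fell, at -0.28 ± 0.06 and -0.24 ± 0.05. The other ATP2 genes of the list, AT5G08670 and AT5G08680, were at -0.14 and -0.11 and did not pass (limma adjusted p = 0.13 and 0.19). With median centring AT5G13440 and AT5G08690 stood at -0.09 and -0.04 and neither passed (adjusted p = 0.75 and 0.88). The ratio of ATMG00516, at -0.67, lay outside the range of these 25 genes, and those of ATMG00285 and ATMG00580 lay within it. ATMG00300, not well above background in AtERF4-HA, was not placed.

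Markers of shoot and root were read beside these lists. The shoot markers are no separate evidence, since GLK1, PSAD1 and RBCS1A are also list members and the others are light-harvesting genes. Of 6 shoot markers 4 rose (LHCA1, CAB3, GLK1 and PSAD1) and 2 did not pass, with ratios of 0.21 to 1.03. Of 11 root markers 2 rose and 9 did not pass, with ratios of -0.58 to 0.68. Called were 66.7% of the shoot and 18.2% of the root markers, against 25.6% of all genes tested. The root marker NRT2.1 (AT1G08090) was well above background on 4 arrays in AtERF4-HA and on 0 in the control. It thus entered the test only through the AtERF4-HA channel. The part of these markers in the ratios of the organelle loci and of the nuclear lists was not tested. Without array 1 and without array 2, 2 of the list members were called each time, when 3.37% and 3.12% of all genes were called in those fits of 3 arrays.

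**Figure D4:**
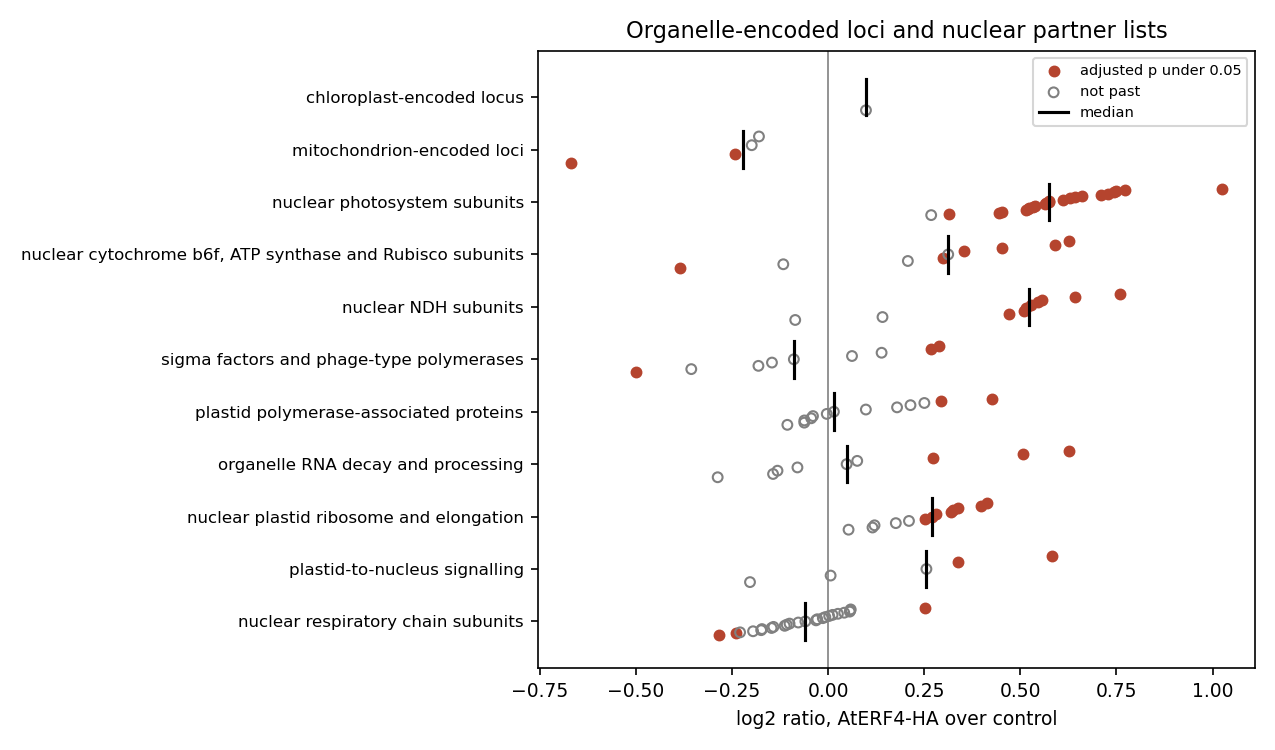
Log2 ratio of AtERF4-HA over control (x axis) for the chloroplast locus, the mitochondrial loci and the tested members of 9 nuclear lists (rows), filled where the adjusted p was under 0.05, with each row's median as a bar. The photosystem list is centred at 0.57 and the respiratory chain list at -0.06, while the mitochondrial loci run from -0.67 to -0.18.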

How the data were processed

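RNA of 4 biological replicates was measured on 4 2-colour arrays of 1 slide and 1 scan, so neither could be tested as a batch. The authors' deposited files hold spot intensity; per the submitters' processing notes the software was Feature Extraction 9.1.3.1. They also hold a log10 ratio, per the file headers, and 100% of the 121417 spots compared put it within 0.001 of log10 of processed red over processed green. The authors' deposited value table holds natural log ratios (slopes of 0.69 or -0.69 on log2 of red over green), with column medians of -0.22, -0.05, -0.14 and -0.08. The steps behind it are not stated in these sources. Relative to the median gene, the organelle loci stood alike in it and in the processed signals (ATMG00516 at -0.83 in both).

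Median signals were corrected with normexp (offset 50) and loess-normalized in limma 3.58.1 (R 4.3.3), where control spots had weight 0. For the normalized log2 signals of each genotype, but not for the ratios, mean intensities were also quantile-normalized between arrays (Aquantile). Spots with feature outlier flags were left out, and none belonged to the organelle loci. Probes well above background on all 4 arrays in 1 channel were kept, and the brightest stood for its gene. The log2 ratios were fitted with lmFit and eBayes to genotype and dye, with 2 residual degrees of freedom, and p-values were adjusted over all genes. The precision is limited by the number of arrays.

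The loci and lists were chosen with earlier results of these data known. Named genes were the organelle loci, the 2 members of each nuclear list with the largest called change, and ERF4. RPOTm, RPOTp, RPOTmp, 7 called genes of small counts and the called shoot markers were added after their values were seen. Of 119 list symbols, 82 were found in RefSeq (TAIR10.1) for their locus, and the rest are names of the lists. These sources name no genome build for the array. Alternatives changed background, normalization, filter, saturated spots, model, probe choice and arrays, or took the value table.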

Additional observations from a re-analysis of the deposited data

How the results depend on the processing

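No organelle locus, and no nuclear gene of the 30 followed, turned its sign with a call under any of the 15 alternatives. ATMG00516 kept its call in each except without array 1 or array 2, though some of the alternatives could hardly move it, as given below. With 4 called genes in place of 2, no background correction called every mitochondrial locus, while median centring and the model without a dye term called 1 each, and leaving out an array 0 to 1. The chloroplast locus was called 1 time, with the value table, where its ratio was 0.31, and 0 times with any array left out (0.04 to 0.16). The median of the mitochondrial loci was -0.57 for processed signals and -0.46 for the authors' table, through ATMG00300, and -0.28 to -0.16 with an array left out. Nuclear list calls numbered 57, against 37 without a dye term and 2 to 58 with an array left out. Over all genes 4995 were called (2660 higher and 2335 lower), against 10956 with the value table (7892 higher and 3064 lower). There were 9117 without background correction (4193 higher and 4924 lower), 8976 with processed signals (5050 higher and 3926 lower), and 608 to 7200 with an array left out. Lower calls also outnumbered higher ones without array 1 (417 against 241), array 2 (403 against 205) or array 3 (3916 against 3284), but not without array 4 (2022 against 2146). Median centring and the value table put the median of all genes at 0.11 and 0.16, and relative to these ATMG00580 stood at -0.16 and -0.36. The 30 nuclear genes followed through the alternatives stayed on their side of the threshold in 377 of 450 alternative values, lost the call in 72 and gained it in 1 (RPOTm). Organelle probes at loess weight 0, which took 5 of 37478 probes out of the loess, changed no call of the 5 loci. Leaving out saturated spots could not change their ratios, since none of their spots was saturated. Averaging probes could not either, since each locus had 1 probe. These alternatives therefore do not test the calls of the loci. The fit was paired by design, since each array holds both genotypes of a replicate and the ratio is the pair. Signals near background limit ATMG00285 and ATMG00300. ATMG00300 was not tested where both channels had to be well above background.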
